A study of Mus musculus with 12 samples.

Results

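Integrins and laminins were described in 12 mammary tumors of PyMT mice by taking every gene whose symbol matched an integrin alpha subunit, an integrin beta subunit from 1 to 8 or a laminin alpha, beta or gamma chain. The rule found 38 genes with 37 symbols among 21960 listed genes: 19 alpha subunit entries, 8 beta subunits and 11 laminin chains. Itgam had 2 entries, which overlap on chromosome 7, and the second was listed at 0 in 11 tumors and at 0.41 TPM in DOX/IgG1 replicate 3. How reads were divided between these entries was not stated, so the Itgam level is uncertain to that extent.

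All tumors came from female mice of the C57BL/6 strain with the PyMT transgene, in which the promoter of mouse mammary tumor virus drives the middle T oncogene of polyoma virus and tumors arise in the animals' own mammary glands; their ages were not given in the sources used here. There were 4 groups of 3 tumors: an IgG1 control antibody, an antibody against the checkpoint receptor PD-1 (clone 4H2), doxorubicin (DOX) with IgG1, and DOX with anti-PD-1. RNA from snap-frozen tumors was sequenced, and levels are given in TPM, a transcript abundance scaled to gene length and to the library, so that levels of different genes can be compared. In these bulk samples, fewer cells of a type and less RNA per cell cannot be told apart.

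The DOX groups also differed from the groups without DOX in other ways. Treatment started at a tumor diameter of 1 cm in place of 0.6 cm, the first antibody dose was 10 mg/kg in place of 20 mg/kg, and DOX was given at 5 mg/kg weekly for 5 weeks. For the antibodies without DOX, the treatment text and the duration field of the labels give different schedules. Doxorubicin, start size, first dose and schedule cannot be told apart. Nothing in the labels said that the 3 tumors of a group came from separate mice, so each p-value measures the spread between these tumors only. Read counts were not used here, and the depth of each library is unknown; the listed genes summed to between 609418 and 725506 TPM per tumor, and between 13238 and 14109 genes reached 1 TPM.

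Integrins are paired alpha and beta receptors that anchor cells to the extracellular matrix or to other cells and pass signals in both directions. Laminins are alpha, beta and gamma chain trimers that form the core of basement membranes, and in the mammary gland they are the main ligand of the epithelial integrins. The genes were grouped by the cells in which they are best known: epithelium, stroma and vessels, leukocytes and platelets, or many cell types.

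Several tumors stood apart before any integrin was compared. DOX/IgG1 replicate 1 had the lowest median correlation with the other 11 tumors, 0.884. DOX/anti-PD-1 replicate 3 was close to it at 0.888, and the rest had 0.901 to 0.924. The heading of the value column of DOX/IgG1 replicate 1 also carries the word test, unlike the other 11. The sources used here do not say what it means. The headings of the 3 DOX/anti-PD-1 tumors end in another number than those of the other 9 tumors, also unexplained, so that whatever this marks and the DOX/anti-PD-1 group cannot be told apart. The 6 skeletal muscle markers summed to 96.3, 25.1 and 435 TPM in the IgG1 tumors, 414, 31.9 and 19.1 in the anti-PD-1 tumors, 39.5, 119.6 and 164 in the DOX/IgG1 tumors and 698, 0.3 and 135 in the DOX/anti-PD-1 tumors; Acta1 was the most abundant of them by mean, and 3 tumors exceeded 400 TPM. The 4 salivary gland markers found in the files summed to 6.4, 16.8 and 5.9 TPM in the IgG1 tumors, 22.4, 5.4 and 22.5 in the anti-PD-1 tumors, 52.1, 98 and 113 in the DOX/IgG1 tumors and 19.7, 16 and 23.3 in the DOX/anti-PD-1 tumors. Of these, the saliva protein gene Bpifa2 was listed at 0 in all 9 tumors outside the DOX/IgG1 group and at 14.4, 21.3 and 53.7 TPM inside it, and Smr3a was listed at 0 in 8 tumors outside it and at 16.6, 10.2 and 14.8 TPM inside it. Salivary tissue in the samples and DOX/IgG1 treatment cannot be told apart.

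Markers of the labelled tissue were present: the 5 luminal epithelium markers summed to between 1741 and 3428 TPM, with Epcam the most abundant by mean, while Krt19 in 3 and Krt18 in 1 of the 6 DOX tumors had the highest level. The 4 general leukocyte markers summed to between 129 and 293 TPM, with Ptprc the most abundant, and the 5 fibroblast markers to between 437 and 1584 TPM, with Col1a1 the most abundant by mean. The neutrophil markers reached at most 14.2 TPM in sum, and 1 of the 5 was at 0 in all tumors.

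The beta1 subunit Itgb1, which pairs with most matrix-binding alpha subunits, was the most abundant gene of the whole set at a mean of 566 TPM over the 12 tumors. The laminin-binding alpha6 subunit Itga6 (475 TPM), the alphav subunit Itgav (269 TPM) and the hemidesmosome subunit Itgb4 (169.6 TPM) followed. Epithelial and broadly expressed integrins summed to 580.3 to 935 and 699.7 to 1210.0 TPM per tumor, whereas the leukocyte and platelet integrins summed to 54.1 to 126 TPM and the stromal and vascular integrins to 101 to 184 TPM.

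**Figure D1:**
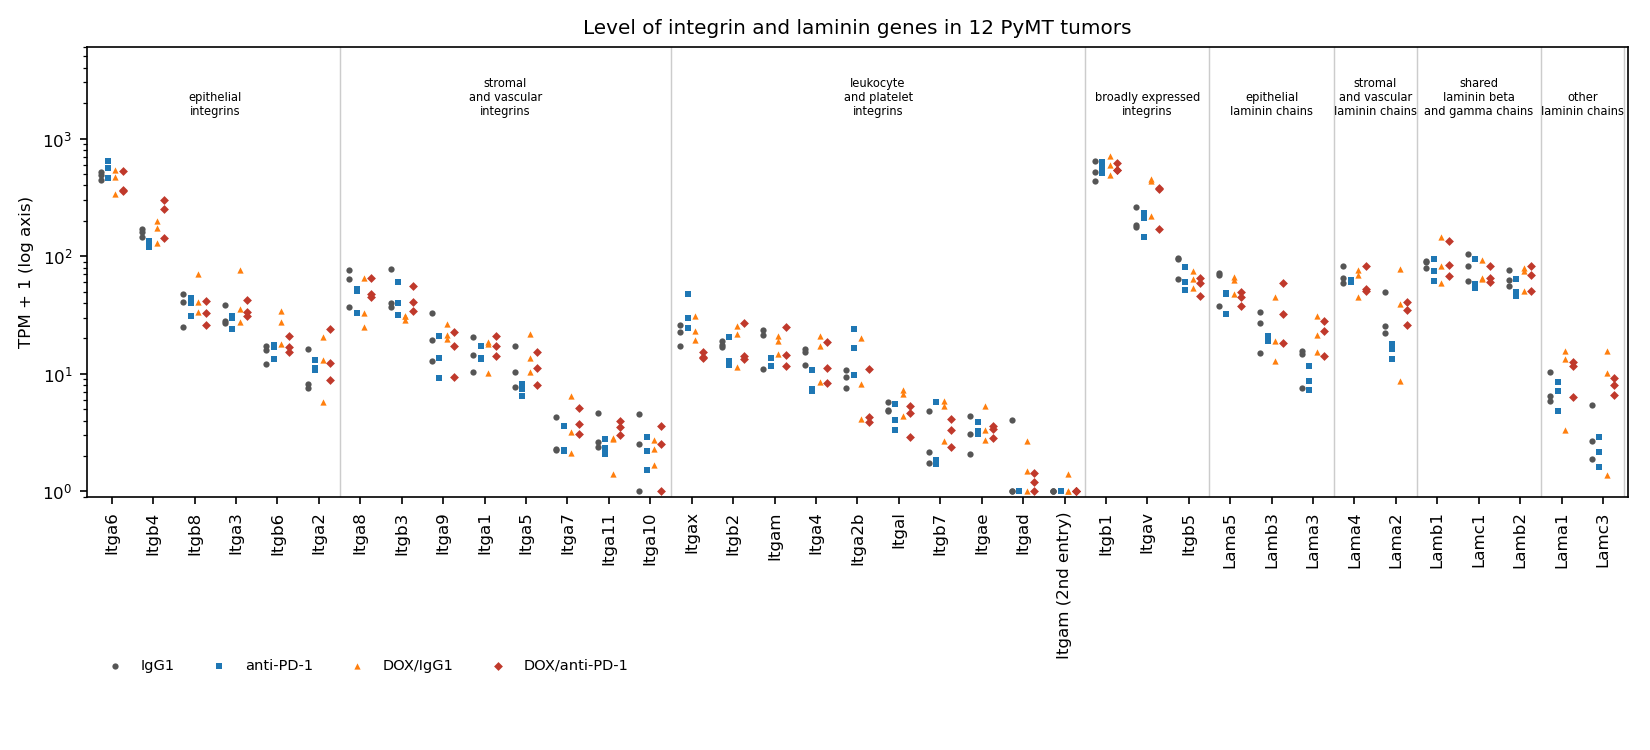
Level of 37 of the 38 genes in each of the 12 tumors, as TPM + 1 on a log axis, ordered by class and by mean level; each point is 1 tumor and the color and shape give its group. Itga6, Itgb4, Itgb1 and Itgav lie above 100 TPM in every tumor, and Itgad and the second Itgam entry are at 0 in most.

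Within the alpha subunits, Itga6 made up 34.7% to 62.6% of the summed TPM of a tumor, and Itgav 17.5% to 44.4%. Itga6 was 53.5% ± 3.99 of the alpha subunits in the IgG1 tumors, 58.6% ± 3.55 in the anti-PD-1 tumors, 43.2% ± 10.8 in the DOX/IgG1 tumors and 45.5% ± 6.42 in the DOX/anti-PD-1 tumors (SD, n = 3). Itgav was 22.7% ± 2.12, 20.5% ± 3.06, 35.1% ± 11.3 and 32.5% ± 7.85 in the same order. For both shares the DOX/IgG1 and IgG1 tumors overlapped, through replicate 1 of the DOX/IgG1 group, while with anti-PD-1 the tumors treated with DOX did not overlap those without it. DOX/anti-PD-1 replicate 1 lay within the range of the IgG1 tumors. Among the beta subunits, Itgb1 made up 54.8% to 69.3% of a tumor's sum and Itgb4 13.4% to 26.8%.

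Lama4, the alpha chain best known from vessels, and Lama5, that of epithelial and vascular basement membranes, had the highest mean levels of the laminin alpha chains, at 23.4% to 52.7% and 20.9% to 42.1% of the alpha chain sum. Lamb1 made up 37.2% to 61.3% of the beta chains. Lama2 ranged from 4.61% to 34.5% of the alpha chains, with both extremes in the DOX/IgG1 group. In DOX/IgG1 replicate 2 it had the largest share of the alpha chains, above Lama4 and Lama5, and in DOX/anti-PD-1 replicate 3 it was above Lama5. These shares are descriptions of RNA levels and were not tested.

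**Figure D2:**
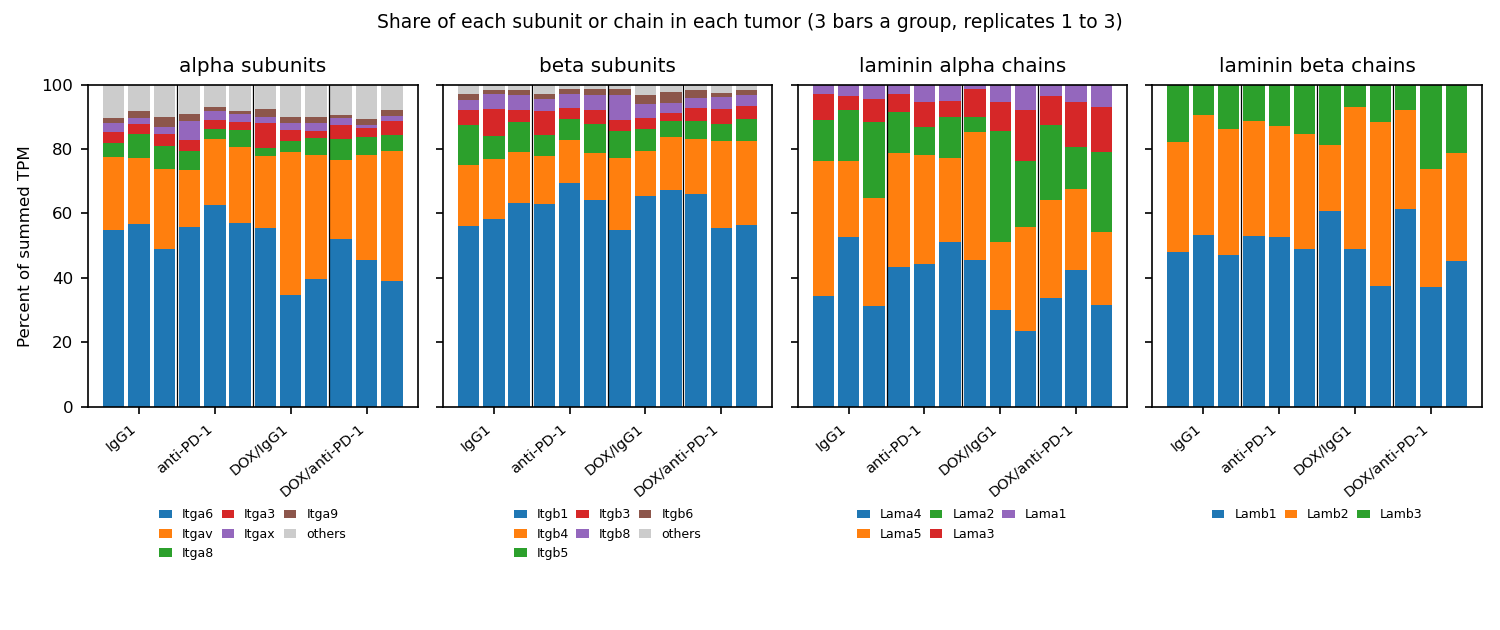
Percent of the summed TPM taken by each integrin subunit and each laminin alpha or beta chain in each tumor, with 1 bar per tumor and 3 bars per group. Itga6 and Itgb1 hold the largest share of their families in most tumors, while Itgav is above Itga6 in DOX/IgG1 replicate 2 and DOX/anti-PD-1 replicate 3.

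No integrin or laminin passed the test in any of 7 comparisons. The test was limma on log2(TPM + 1) over all genes that reached 1 TPM in 3 or more tumors of the fit, and a gene was called where its Benjamini-Hochberg adjusted p was under 0.1 and its log2 fold change was over 1 in size. The fold changes are on this scale, which understates those of low genes. In each comparison 36 of the 38 genes were tested, all but Itgad and the second Itgam entry, and 0 were called. Of all genes tested, 0.036% were called for DOX/IgG1 against IgG1, and 0% for each of DOX/anti-PD-1 against anti-PD-1, anti-PD-1 against IgG1 and DOX/anti-PD-1 against DOX/IgG1. In 1 fit on all 12 tumors, 0.0882% of genes were called for doxorubicin averaged over both antibodies, 0.00679% for anti-PD-1 averaged with and without doxorubicin, and 0.00679% for the interaction, which is the effect of DOX with anti-PD-1 minus that with IgG1. A p that misses the threshold does not show that the levels were alike. At the same limits, but with the method DESeq2, the study reported altered genes in each of these pairwise comparisons. The test used here, on TPM, therefore called fewer genes than the study did. With DOX/IgG1 replicate 1 left out, 2 of 36 members were called for doxorubicin, Lama3 and Lamc3, and 301 of all 14735 genes tested (2.04%), against 13 with all tumors.

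At an unadjusted p below 0.05 by limma, the members were Itgav and Itgb6 for DOX/IgG1 against IgG1 (2 of 36, with 7.73% of all genes tested). They were Itga2b, Itgax, Itgb4, Lama2, Lama3 and Lamc3 for DOX/anti-PD-1 against anti-PD-1 (6 of 36, with 8.63% of all genes). They were Itga4 and Lama2 for anti-PD-1 against IgG1 (2 of 36, with 4.6%) and Itgax for DOX/anti-PD-1 against DOX/IgG1 (1 of 36, with 4.7%). In the fit on all tumors they were Itgav, Itgax, Itgb4, Lama3 and Lamc3 for doxorubicin (5 of 36, with 11.9%), none for anti-PD-1 (0 of 36, with 4.77%) and Itgax for the interaction (1 of 36, with 4.71%). The pairwise comparisons share control tumors, so the same gene in more than 1 of them is not separate evidence.

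The groups did not overlap for 2 of 36 members when DOX/IgG1 was set against IgG1, with Itgb6 higher and Itgb3 lower, beside 14% of all genes tested. For DOX/anti-PD-1 and its control there were 7 (14.9% of all genes), with Itga11, Itga3, Itgb4, Lama2, Lama3 and Lamc3 higher and Itgax lower. Without DOX, 3 members were lower with anti-PD-1, Itga4, Itgb4 and Lama2 (9.88%). With DOX there were also 3, with Itga11 and Itgb3 higher and Itgax lower in the anti-PD-1 group (10.2%). These genes were named after their values were seen. With 3 tumors against 3, an exact permutation test cannot go below p = 0.1. Single members were therefore also tested with 6 tumors a side, exchanging the DOX labels within each antibody. This gives 400 arrangements and a smallest exact p of 0.005. The same was done for anti-PD-1, exchanging the antibody labels among tumors with DOX and among tumors without it. These exact p-values were not adjusted for the number of members. For doxorubicin they are printed for the 5 members with an unadjusted p below 0.05 by limma and for Itgb6. For anti-PD-1 only the smallest is printed, which was 0.06 by the exact permutation test, for Lama5.

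The number of members on the higher side depended on how the tumors were scaled. For doxorubicin averaged over both antibodies, 27 of 36 members had a positive log2 fold change with values as deposited and 22 of 36 after scaling by the median of ratios, and the median over all genes tested moved from 0.12 to 0.01. For DOX/IgG1 against IgG1 these counts were 24 and 16. The scaling shifted the median of all genes by -0.11, -0.12 and -0.11 on the log2 scale for DOX/IgG1 against IgG1, DOX/anti-PD-1 against anti-PD-1 and the doxorubicin average, and by -0.01 to 0.03 in the other 4 comparisons. For anti-PD-1 against IgG1, 9 of 36 members were positive under both scalings, with a median of -0.22 against -0.03 over all genes. All 11 laminin chains were on the lower side there, each with an adjusted p of 0.996 by limma, beside 7224 of all 13692 genes. So were 5 of 5 fibroblast, 5 of 5 luminal epithelium and 5 of 5 adipocyte markers. When DOX/anti-PD-1 was compared with the same anti-PD-1 tumors, 10 of 11 laminin chains were positive with values as deposited and 8 of 11 after scaling, beside 8239 of all 13736 genes as deposited. For DOX/IgG1 against IgG1 the laminin counts were 6 of 11 as deposited and 3 of 11 after scaling, beside 8407 of all 13874 genes as deposited. Between the antibodies with DOX, 6 of 11 were positive for DOX/anti-PD-1 against DOX/IgG1 as deposited and 7 of 11 after scaling. Of all 13946 genes, 6460 were positive there as deposited. Of the marker lists, 5 of 5 fibroblast, 5 of 5 adipocyte and 6 of 6 basal and myoepithelial markers were positive for DOX/anti-PD-1 against anti-PD-1 too with values as deposited, 3, 4 and 2 of them with an unadjusted p below 0.05 by limma. So were 5 of 5 macrophage markers, 0 of them with such a p. Their part in the laminin values was not tested.

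**Figure D3:**
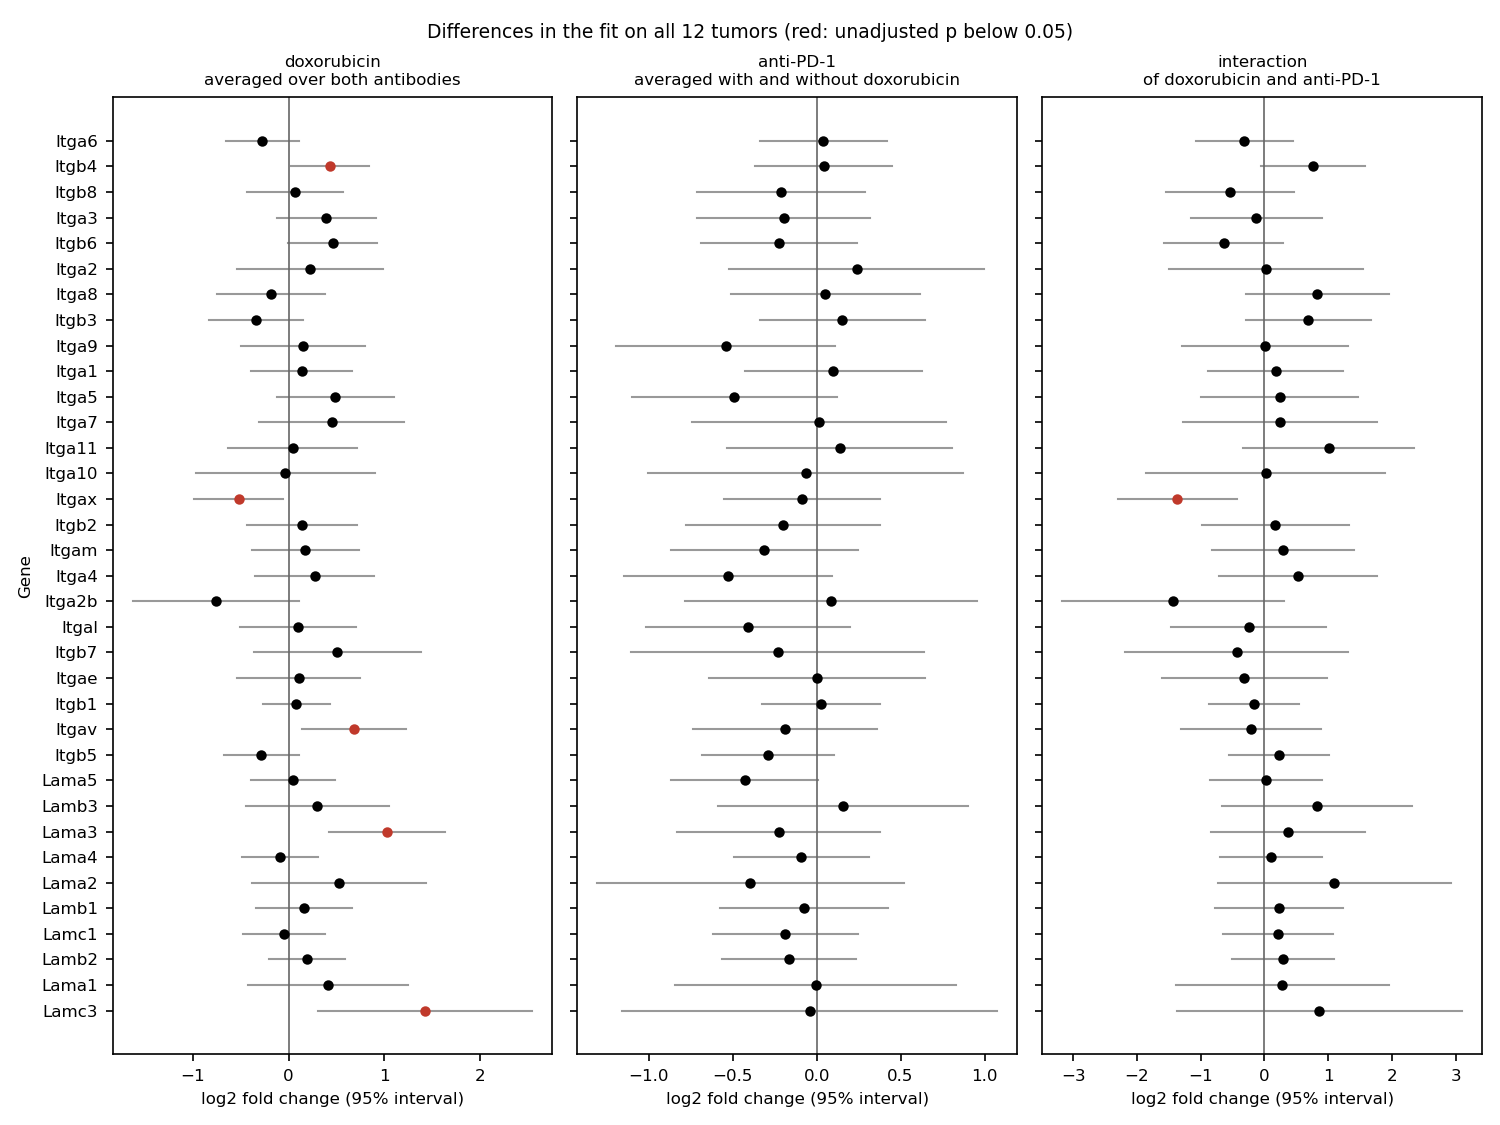
Log2 fold change of log2(TPM + 1) with its 95% interval for 35 of the 36 tested genes in the fit on all 12 tumors, for doxorubicin, anti-PD-1 and their interaction; red points have an unadjusted p below 0.05. Lamc3, Lama3 and Itgav lie to the right of 0 for doxorubicin, and Itgax to the left of 0 for doxorubicin and for the interaction.

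Of the broadly expressed integrins, Itgav encodes the alphav subunit, which binds fibronectin, vitronectin and osteopontin and activates latent TGF-beta in its pairs with beta6 and beta8. Itgav (ENSMUSG00000027087, chr2:83724397-83806916, plus strand on GRCm38) was at 184, 175 and 261 TPM in the IgG1 tumors, 145, 211 and 230.3 in the anti-PD-1 tumors, 220.2, 434 and 455 in the DOX/IgG1 tumors and 168, 377 and 373 in the DOX/anti-PD-1 tumors. In both DOX groups 2 of 3 tumors were above every tumor without DOX, and replicate 1 of each DOX group lay within their range. For doxorubicin the difference had a log2 fold change of 0.68 (SE 0.25, 95% interval 0.14 to 1.23) and an adjusted p of 0.324 by limma, and 5 of the 6 DOX tumors were above the median of the other 6; the exact permutation p was 0.055. Without DOX/IgG1 replicate 1 the log2 fold change was 0.85, with an adjusted p of 0.1096 by limma, and over 19 alternatives the adjusted p ranged from 0.1096 to 0.511.

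The promoter of Itgav is shown as that of the most abundant gene with an unadjusted p below 0.05 for doxorubicin. RefSeq promoter windows of 300 bases on GRCm38.p6, 250 before and 50 after the start, were found for 23 of the 37 symbols, and those of Itgav, Itgax and Lama2 are printed in this text, 5' to 3' along the gene. Capitals mark matches on either strand to 4 motifs, which are GGGCGG for the GC box, TGANTCA for the AP-1 family, TATAAA for the TATA box and GAGGAAGT for the leukocyte factor PU.1.
Itgav, chr2:83724147-83724446, plus strand: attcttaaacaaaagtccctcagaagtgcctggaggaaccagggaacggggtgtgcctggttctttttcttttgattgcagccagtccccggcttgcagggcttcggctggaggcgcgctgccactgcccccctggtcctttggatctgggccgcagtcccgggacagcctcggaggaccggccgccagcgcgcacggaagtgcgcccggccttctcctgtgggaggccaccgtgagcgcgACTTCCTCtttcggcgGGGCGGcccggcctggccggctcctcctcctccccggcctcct
The window holds 1 GGGCGG and 1 GAGGAAGT, the latter on the opposite strand, and 50 of its bases lie in an exon of Itgav. Of 32851 windows of this length, 35.7% hold GGGCGG, 7.81% TGANTCA, 13.6% TATAAA and 3.2% GAGGAAGT; the 3 promoters and the 4 motifs were chosen after values were seen, and a match describes letters only.

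Itgb1 was at 437, 521 and 638 TPM in the IgG1 tumors, 504, 629.5 and 577 in the anti-PD-1 tumors, 487, 599 and 703 in the DOX/IgG1 tumors and 543, 619 and 539.6 in the DOX/anti-PD-1 tumors. It varied by a factor of 1.61 over all tumors, the least of any member, and its groups overlapped in every comparison. Itgb5, a beta partner of alphav that binds vitronectin, ranged from 45.02 to 95.98 TPM.

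Among the epithelial integrins, Itga6 pairs with beta4 in hemidesmosomes and with beta1 elsewhere. It was at 442, 484 and 516 TPM in the IgG1 tumors, 463, 645 and 558 in the anti-PD-1 tumors, 543, 339 and 469 in the DOX/IgG1 tumors and 355, 526 and 362 in the DOX/anti-PD-1 tumors, and the groups overlapped throughout. Its partner Itgb4 (ENSMUSG00000020758, chr11:115974709-116008412, plus strand) was at 146, 168 and 160.3 TPM in the IgG1 tumors, 119, 122 and 133 in the anti-PD-1 tumors, 199, 128 and 171 in the DOX/IgG1 tumors and 140.4, 298 and 251 in the DOX/anti-PD-1 tumors. All 3 DOX/anti-PD-1 tumors were above all 3 anti-PD-1 tumors, and all anti-PD-1 tumors were below all IgG1 tumors, while the DOX/IgG1 tumors overlapped with the IgG1 tumors. For DOX/anti-PD-1 against anti-PD-1, Itgb4 had a log2 fold change of 0.81 (SE 0.29, 95% interval 0.16 to 1.47) and an adjusted p of 0.513 by limma. For doxorubicin averaged over both antibodies the exact permutation p was 0.1.

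Itgb6 encodes the epithelial beta6 subunit, which binds and activates latent TGF-beta together with alphav. It was at 16.1, 11.1 and 14.8 TPM in the IgG1 tumors, 12.4, 16 and 16.5 in the anti-PD-1 tumors, 16.8, 26.5 and 32.99 in the DOX/IgG1 tumors and 19.9, 14.2 and 16.03 in the DOX/anti-PD-1 tumors. The 3 DOX/IgG1 tumors were above all IgG1 tumors, the lowest of them by less than 1 TPM, and the DOX/anti-PD-1 tumors overlapped with the anti-PD-1 tumors. For DOX/IgG1 against IgG1 it had a log2 fold change of 0.78 (SE 0.34, 95% interval 0.01 to 1.55) and an adjusted p of 0.638 by limma. The exact permutation p for doxorubicin averaged over both antibodies was 0.05. In DOX/IgG1 against IgG1, 4 of 5 luminal epithelium markers were lower, beside 5467 of all 13874 genes, and Krt19 was higher. Epcam had a log2 fold change of -0.87 there and an adjusted p of 0.469 by limma. Their part in the Itgb6 and Itgav values was not tested. Of the other epithelial integrins, the laminin receptor subunit Itga3 ranged from 22.8 to 75.9 TPM, Itgb8 from 24.1 to 69.6 TPM and the collagen receptor subunit Itga2 from 4.73 to 23.1 TPM. The highest Itga3 and Itgb8 levels and the lowest Itga2 level were all in DOX/IgG1 replicate 1.

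The 6 basal and myoepithelial markers, cells in which alpha6beta4 is also expressed, summed to 374, 139.6 and 319.5 TPM in the IgG1 tumors, 157, 259 and 234 in the anti-PD-1 tumors, 214, 518 and 764 in the DOX/IgG1 tumors and 304, 379.5 and 462 in the DOX/anti-PD-1 tumors, with Acta2 the most abundant by mean. All 6 were positive for doxorubicin, beside 9332 of all 14735 genes tested with values as deposited, and 0 passed the test by limma. All 6 were also positive for DOX/anti-PD-1 against anti-PD-1, in which the groups did not overlap for Itgb4 and Lama3. Acta2 and Myh11, the 2 with the highest mean levels, had log2 fold changes of 0.93 and 0.93 there. Their adjusted p was 0.504 and 0.521 by limma, and their unadjusted p 0.014 and 0.0227. Krt5, Krt14, Krt17 and Trp63 had no unadjusted p below 0.05 by limma there. Krt14 was at 19.3, 29.6 and 16.99 TPM in the anti-PD-1 tumors and 17.1, 55.9 and 23.3 in the DOX/anti-PD-1 tumors. Its highest level was 112 TPM, in DOX/IgG1 replicate 1, where the 6 markers summed to 214 TPM. The part of these 6 markers in the Itgb4 and Lama3 values was not tested.

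Among the stromal and vascular integrins, Itga8 pairs with beta1 as a receptor for nephronectin. It was at 36.1, 63.3 and 75.7 TPM in the IgG1 tumors, 49.1, 31.6 and 51.7 in the anti-PD-1 tumors, 23.8, 31.7 and 63.9 in the DOX/IgG1 tumors and 44.2, 63.7 and 46.5 in the DOX/anti-PD-1 tumors, with overlap in every comparison. Itgb3, the beta subunit of the vitronectin receptor of vessels and of the platelet fibrinogen receptor, was at 36.1, 76.3 and 38.8 TPM in the IgG1 tumors, 59.3, 30.8 and 38.7 in the anti-PD-1 tumors, 29.7, 30.02 and 27.6 in the DOX/IgG1 tumors and 33.3, 54.3 and 39.4 in the DOX/anti-PD-1 tumors. All 3 DOX/IgG1 tumors were below all IgG1 tumors and below all DOX/anti-PD-1 tumors, with adjusted p values of 0.664 and 0.988 by limma. The other members were lower in level: Itga9 ranged from 8.17 to 31.7 TPM, the collagen receptor subunit Itga1 from 9.21 to 19.8 TPM, the fibronectin receptor subunit Itga5 from 5.46 to 20.7 TPM, the muscle laminin receptor subunit Itga7 from 1.1 to 5.52 TPM, Itga11 from 0.4 to 3.6 TPM and Itga10 from 0 to 3.52 TPM. Of these 8 genes, 0 had an unadjusted p below 0.05 by limma in any comparison.

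The leukocyte class was led by Itgax, which encodes CD11c, the alphaX subunit of dendritic cells and of some macrophages. Itgax (ENSMUSG00000030789, chr7:128129547-128150657, plus strand) was at 21.8, 16.2 and 24.8 TPM in the IgG1 tumors, 46.9, 28.5 and 23.7 in the anti-PD-1 tumors, 18.6, 22.1 and 30.2 in the DOX/IgG1 tumors and 14.2, 12.6 and 12.8 in the DOX/anti-PD-1 tumors. Each DOX/anti-PD-1 tumor was below each of the other 9 tumors, and these 3 tumors lay within 2 TPM of each other; the highest value was in anti-PD-1 replicate 1. The DOX/anti-PD-1 tumors are also those whose column headings differ from the rest, which cannot be told apart from the group. For DOX/anti-PD-1 against anti-PD-1 it had a log2 fold change of -1.21 (SE 0.31, 95% interval -1.90 to -0.51) and an adjusted p of 0.479 by limma. Against DOX/IgG1 it had a log2 fold change of -0.77 (SE 0.31, 95% interval -1.47 to -0.06) and an adjusted p of 0.988 by limma. In the test of the interaction it had a log2 fold change of -1.36 (SE 0.43, 95% interval -2.30 to -0.43) and an adjusted p of 0.993 by limma, so the effect of DOX with and without anti-PD-1 did not differ past the threshold. For doxorubicin averaged over both antibodies the exact permutation p was 0.11.

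The Itgax promoter window is shown as that of the member with the smallest unadjusted p for the interaction.
Itgax, chr7:128129300-128129599, plus strand: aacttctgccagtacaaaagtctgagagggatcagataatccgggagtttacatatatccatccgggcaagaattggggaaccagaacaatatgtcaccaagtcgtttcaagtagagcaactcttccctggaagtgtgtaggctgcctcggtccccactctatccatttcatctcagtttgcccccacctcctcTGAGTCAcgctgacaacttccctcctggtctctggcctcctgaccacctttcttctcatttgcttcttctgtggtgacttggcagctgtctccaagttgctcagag
It holds 1 TGANTCA and none of the other 3 motifs, and 53 of its bases lie in an exon of Itgax.

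Itgb2, the common beta2 subunit that pairs with the alpha subunits encoded by Itgax, Itgam, Itgal and Itgad, was at 18.1, 15.8 and 16.7 TPM in the IgG1 tumors, 19.7, 10.8 and 11.8 in the anti-PD-1 tumors, 10.5, 24.5 and 20.6 in the DOX/IgG1 tumors and 13.02, 25.9 and 12.4 in the DOX/anti-PD-1 tumors. Its groups overlapped in every comparison, also between the 2 groups given anti-PD-1, where Itgax did not. Itgam, the alphaM subunit of macrophages and neutrophils, ranged from 9.98 to 23.8 TPM, and Itgal, the alphaL subunit of lymphocytes, from 1.9 to 6.23 TPM. The 5 macrophage markers summed to 245, 196 and 248 TPM in the IgG1 tumors, 157, 219 and 193 in the anti-PD-1 tumors, 204, 293 and 296 in the DOX/IgG1 tumors and 169, 291 and 215 in the DOX/anti-PD-1 tumors, with C1qa the most abundant, and the 4 general leukocyte markers to 201, 166 and 248 TPM in the IgG1 tumors, 141, 192 and 129 in the anti-PD-1 tumors, 129, 209 and 293 in the DOX/IgG1 tumors and 141, 202 and 153 in the DOX/anti-PD-1 tumors. In both lists the sums overlapped between the 2 groups given anti-PD-1. For DOX/anti-PD-1 against DOX/IgG1, 8 of 8 tested leukocyte and platelet integrins were lower, beside 7486 of all 13946 genes. So were 5 of 5 macrophage, 3 of 4 general leukocyte and 3 of 4 tested T cell markers. In contrast, 2 of 2 tested neutrophil markers were higher, and of 2 tested platelet markers 1 was higher and 1 lower. For DOX/anti-PD-1 against anti-PD-1, 5 of 5 macrophage and 3 of 4 general leukocyte markers were higher. Of the tested T cell, neutrophil and platelet markers, 2 of 3, 1 of 3 and 1 of 1 were higher there. The part of cell numbers in the Itgax values was not tested.

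Itga4 encodes the alpha4 subunit, which binds VCAM-1 and fibronectin on lymphocytes and monocytes. It was at 10.95, 15.1 and 14.4 TPM in the IgG1 tumors, 9.85, 6.08 and 6.43 in the anti-PD-1 tumors, 7.45, 16.1 and 19.9 in the DOX/IgG1 tumors and 7.4, 17.4 and 10.2 in the DOX/anti-PD-1 tumors. All anti-PD-1 tumors were below all IgG1 tumors, with a log2 fold change of -0.79 (SE 0.32, 95% interval -1.51 to -0.07) and an adjusted p of 0.996 by limma. With DOX, the 2 antibodies overlapped. For anti-PD-1 against IgG1, 3 of 4 general leukocyte and 4 of 5 macrophage markers were also lower, beside 7224 of all 13692 genes. Among them Coro1a had a log2 fold change of -0.95 and Cd68 of -0.87, with adjusted p of 0.936 and 0.996 by limma, while Cd53 was higher. Of 4 tested T cell markers, 3 were lower there, and Cd3g was higher with an unadjusted p below 0.05 by limma. Cd3g was at 1.56, 0 and 0 TPM in the IgG1 tumors and 1.65, 2.7 and 4 in the anti-PD-1 tumors. The part of these markers in the Itga4 values was not tested. The 5 T cell markers found in the files summed to 20.3, 11.5 and 6 TPM in the IgG1 tumors, 2.7, 14 and 8.8 in the anti-PD-1 tumors, 5.8, 44 and 38.4 in the DOX/IgG1 tumors and 13, 15.1 and 32.8 in the DOX/anti-PD-1 tumors, with Cd3e the most abundant by mean.

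Itga2b encodes the alphaIIb subunit of the platelet fibrinogen receptor. It was at 8.32, 6.51 and 9.71 TPM in the IgG1 tumors, 15.6, 8.82 and 23.2 in the anti-PD-1 tumors, 3.11, 7.21 and 19.1 in the DOX/IgG1 tumors and 3.28, 9.98 and 2.9 in the DOX/anti-PD-1 tumors, with a wider spread in the 3 treated groups than in the IgG1 group. For DOX/anti-PD-1 against anti-PD-1 it had a log2 fold change of -1.48 (SE 0.50, 95% interval -2.61 to -0.34) and an adjusted p of 0.504 by limma, and the groups overlapped. The 4 platelet markers summed to 6.2, 3.4 and 6 TPM in the IgG1 tumors, 3, 3.6 and 11.2 in the anti-PD-1 tumors, 14.9, 17.7 and 9.7 in the DOX/IgG1 tumors and 19.1, 18.6 and 3.9 in the DOX/anti-PD-1 tumors; Pf4 was the most abundant by mean, and Ppbp was at 0 in 9 tumors and Gp9 in 11. Itgb7 ranged from 0.7 to 4.86 TPM, Itgae, the alphaE subunit of intraepithelial T cells, from 1.07 to 4.27 TPM, and Itgad was at 0 in 7 tumors and at most 3.04 TPM.

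**Figure D4:**
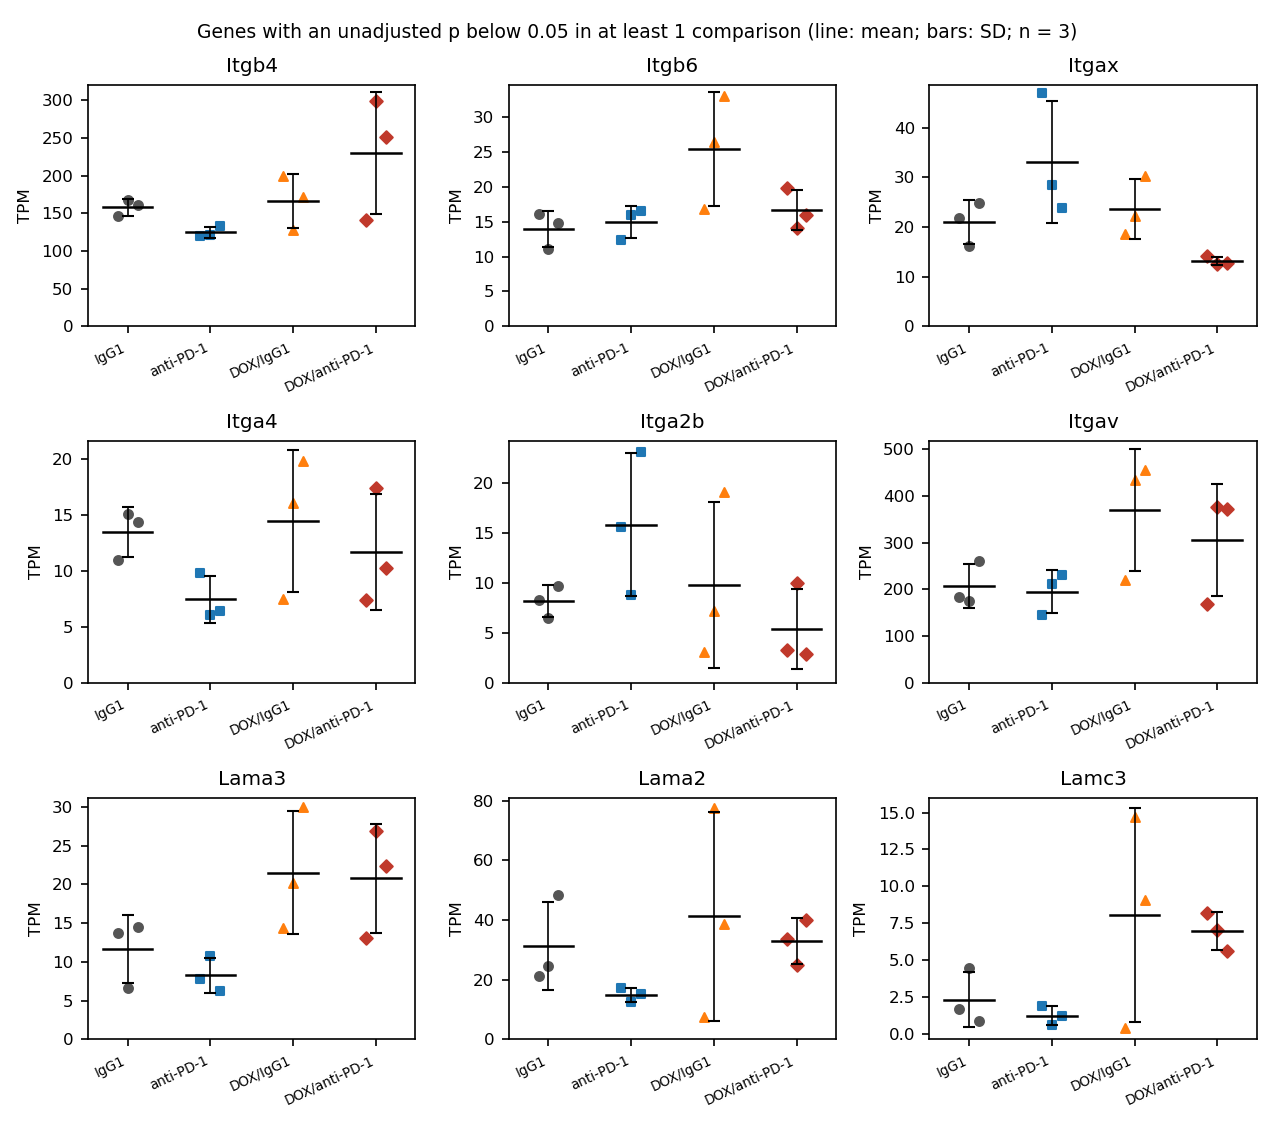
Level in TPM of the 9 genes whose unadjusted p was under 0.05 in at least 1 comparison, in each tumor of the 4 groups, with the group mean as a line and the SD as bars (n = 3). The DOX/anti-PD-1 tumors lie below every other tumor for Itgax, and the DOX/IgG1 tumors spread widely for Lama2 and Lamc3.

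The epithelial laminin chains Lama3 and Lamb3 are part of the ligand of alpha6beta4 and alpha3beta1 in epithelial adhesion. Lama3 was at 13.8, 6.57 and 14.5 TPM in the IgG1 tumors, 7.73, 10.7 and 6.24 in the anti-PD-1 tumors, 14.3, 20.2 and 30 in the DOX/IgG1 tumors and 13.1, 26.8 and 22.3 in the DOX/anti-PD-1 tumors. All DOX/anti-PD-1 tumors were above all anti-PD-1 tumors, and 2 of 3 DOX/IgG1 tumors were above all IgG1 tumors. For doxorubicin averaged over both antibodies it had a log2 fold change of 1.03 (SE 0.28, 95% interval 0.42 to 1.63) and an adjusted p of 0.221 by limma, the smallest adjusted p of any member in any comparison. All 6 DOX tumors were above the median of the other 6, and the exact permutation p was 0.01. Without DOX/IgG1 replicate 1 it passed the test, with a log2 fold change of 1.15 and an adjusted p of 0.0741 by limma, and over 19 alternatives the adjusted p ranged from 0.0741 to 0.391.

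Lamb3, the beta chain that joins Lama3, showed no such separation. It was at 32.5, 13.9 and 26.3 TPM in the IgG1 tumors, 20.1, 18.1 and 18.9 in the anti-PD-1 tumors, 44.2, 11.8 and 17.8 in the DOX/IgG1 tumors and 17.3, 58.4 and 31.3 in the DOX/anti-PD-1 tumors, with DOX/anti-PD-1 replicate 2 the highest, and the groups overlapped in every comparison. Lama5, the alpha chain of most epithelial basement membranes, was at 71.4, 36.5 and 68.6 TPM in the IgG1 tumors, 47.97, 46.7 and 31.3 in the anti-PD-1 tumors, 65.9, 47.04 and 61.5 in the DOX/IgG1 tumors and 44.4, 48.4 and 37 in the DOX/anti-PD-1 tumors. Its groups also overlapped in every pairwise comparison. For anti-PD-1 averaged with and without doxorubicin, all 6 anti-PD-1 tumors were below the median of the other 6 for Lama5. The log2 fold change there was -0.43, with an adjusted p of 0.9997 by limma and an exact permutation p of 0.06.

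Of the stromal and vascular chains, Lama4 was at 58.3, 81.3 and 63.8 TPM in the IgG1 tumors, 58.9, 61.8 and 61.9 in the anti-PD-1 tumors, 75.2, 67.7 and 44.2 in the DOX/IgG1 tumors and 49.2, 81.6 and 51.3 in the DOX/anti-PD-1 tumors, with overlap in every comparison. Lama2 (ENSMUSG00000019899, chr10:26980036-27619758, minus strand), the alpha chain of muscle, nerve and stromal basement membranes, was at 21.4, 24.5 and 48.3 TPM in the IgG1 tumors, 17.1, 12.4 and 15.3 in the anti-PD-1 tumors, 7.62, 77.5 and 38.5 in the DOX/IgG1 tumors and 33.7, 24.9 and 40.1 in the DOX/anti-PD-1 tumors. All anti-PD-1 tumors were below all IgG1 tumors and below all DOX/anti-PD-1 tumors, and the DOX/IgG1 group held both the lowest and the highest tumor. For DOX/anti-PD-1 against anti-PD-1 it had a log2 fold change of 1.08 (SE 0.28, 95% interval 0.43 to 1.72) and an adjusted p of 0.479 by limma, and for anti-PD-1 against IgG1 a log2 fold change of -0.94 (SE 0.34, 95% interval -1.70 to -0.18) and an adjusted p of 0.996 by limma. These 2 comparisons share the anti-PD-1 tumors.

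Lama2 is known from muscle, nerve and fibroblasts, and the marker sums of these cells and of adipocytes are given beside it. The 6 skeletal muscle markers summed to 96.3, 25.1 and 435 TPM in the IgG1 tumors, 414, 31.9 and 19.1 in the anti-PD-1 tumors, 39.5, 119.6 and 164 in the DOX/IgG1 tumors and 698, 0.3 and 135 in the DOX/anti-PD-1 tumors. The highest of these sums, in DOX/anti-PD-1 replicate 1, stood beside 33.7 TPM of Lama2, and the highest Lama2, in DOX/IgG1 replicate 2, beside 119.6 TPM of muscle markers. The 5 fibroblast markers summed to 996, 971 and 1491 TPM in the IgG1 tumors, 697, 698 and 538 in the anti-PD-1 tumors, 437, 1584 and 1080.2 in the DOX/IgG1 tumors and 822, 1157 and 1285 in the DOX/anti-PD-1 tumors. The 5 adipocyte markers summed to 36.1, 163 and 105 TPM in the IgG1 tumors, 45.1, 38.1 and 69.7 in the anti-PD-1 tumors, 81.1, 384 and 56.1 in the DOX/IgG1 tumors and 476, 101 and 108 in the DOX/anti-PD-1 tumors, with Adipoq the most abundant by mean, and the 5 Schwann cell and nerve markers to 103, 72.6 and 68 TPM in the IgG1 tumors, 76.9, 63.4 and 88.1 in the anti-PD-1 tumors, 56, 91 and 93.3 in the DOX/IgG1 tumors and 101, 71.9 and 106 in the DOX/anti-PD-1 tumors, with Sox10 the most abundant. The anti-PD-1 tumors had lower fibroblast sums than all IgG1 and all DOX/anti-PD-1 tumors, as they did for Lama2, and DOX/IgG1 replicate 1 and 2 had the lowest and the highest fibroblast sum, as for Lama2. The collagen genes Col1a1 and Col3a1 had the highest mean levels of the 5 markers, while Dcn was the most abundant in DOX/IgG1 replicates 2 and 3. For anti-PD-1 against IgG1, Col1a1 and Col3a1 had log2 fold changes of -1.50 and -0.54, whereas Pdgfra, Dcn and Lum had -0.10, -0.03 and -0.07, so 3 of the 5 markers were near 0 there. The values of Col1a1, Col3a1, Pdgfra, Dcn and Lum for DOX/anti-PD-1 against anti-PD-1 were 0.97, 0.45, 0.10, 1.03 and 0.77. None of the 5 passed the test by limma in either comparison, and 1 and 3 of them had an unadjusted p below 0.05. The part of fibroblast content in Lama2 was not tested. Without the 3 tumors rich in muscle markers, a choice made after seeing the data, the log2 fold change of Lama2 was 1.14 for DOX/anti-PD-1 against anti-PD-1 and -0.69 for anti-PD-1 against IgG1. Leaving out IgG1 replicate 3 alone, the IgG1 tumor with the highest Lama2, moved the latter from -0.94 to -0.59, with an adjusted p of 0.997 by limma. In the fit on all 12 tumors DOX/anti-PD-1 against anti-PD-1 had an unadjusted p of 0.0953 by limma, and in the fit on its own tumors 0.00416.
Lama2, chr10:27616893-27617192, minus strand: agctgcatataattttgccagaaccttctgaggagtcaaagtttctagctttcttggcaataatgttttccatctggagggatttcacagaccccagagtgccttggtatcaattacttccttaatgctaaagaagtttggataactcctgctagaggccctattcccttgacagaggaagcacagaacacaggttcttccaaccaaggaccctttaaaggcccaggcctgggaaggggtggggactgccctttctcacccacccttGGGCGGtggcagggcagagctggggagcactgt
The Lama2 window is shown because Lama2 had an unadjusted p below 0.05 in 2 comparisons. It holds 1 GGGCGG and none of the other 3 motifs; all 300 of its bases lie in the annotated Lama2 gene, 50 of them in an exon.

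The shared chains Lamb1, Lamb2 and Lamc1 enter most laminins of epithelium, stroma and vessels. Lamb1 was at 87.5, 79.03 and 90.01 TPM in the IgG1 tumors, 93.2, 73.6 and 60.8 in the anti-PD-1 tumors, 144, 81.1 and 58.1 in the DOX/IgG1 tumors and 135, 82.99 and 66.2 in the DOX/anti-PD-1 tumors, and Lamc1 at 104, 60.4 and 81.1 TPM in the IgG1 tumors, 93.7, 56.6 and 52.1 in the anti-PD-1 tumors, 91.4, 63.02 and 64.3 in the DOX/IgG1 tumors and 81.8, 63.7 and 59.7 in the DOX/anti-PD-1 tumors. Replicate 1 of both DOX groups had the highest Lamb1 levels, and all groups overlapped for both genes. Lamb2 ranged from 44.5 to 82.02 TPM.

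The remaining chains are Lama1, best known from embryonic and some glandular basement membranes, and Lamc3. Lama1 was at 4.88, 5.45 and 9.37 TPM in the IgG1 tumors, 3.82, 7.48 and 6.09 in the anti-PD-1 tumors, 2.3, 12.4 and 14.7 in the DOX/IgG1 tumors and 5.32, 10.5 and 11.6 in the DOX/anti-PD-1 tumors. In the DOX/IgG1 group 2 tumors had the highest levels of all and the other the lowest. Lamc3 (ENSMUSG00000026840, chr2:31887291-31946539, plus strand) was at 1.67, 4.44 and 0.88 TPM in the IgG1 tumors, 1.89, 0.62 and 1.18 in the anti-PD-1 tumors, 0.38, 14.7 and 9.06 in the DOX/IgG1 tumors and 8.2, 7.04 and 5.62 in the DOX/anti-PD-1 tumors. All DOX/anti-PD-1 tumors were above all anti-PD-1 and all IgG1 tumors, and the DOX/IgG1 tumors held both the lowest and the highest value. These 2 tumors, replicates 1 and 2, also had the lowest and the highest fibroblast marker sum, 437 and 1584 TPM, with Dcn at 76.8 and 619 TPM. IgG1 replicate 3 had a fibroblast sum of 1491 TPM beside 0.88 TPM of Lamc3. Of that sum, Col1a1 was 745 TPM and Col3a1 492 TPM, while Dcn was at 127 TPM. The part of fibroblast content in Lamc3 was not tested. For doxorubicin it had a log2 fold change of 1.43 (SE 0.52, 95% interval 0.31 to 2.55) and an adjusted p of 0.313 by limma, and the exact permutation p was 0.05, with 5 of 6 DOX tumors above the median of the others. For DOX/anti-PD-1 against anti-PD-1 it had a log2 fold change of 1.86 (SE 0.42, 95% interval 0.92 to 2.80) and an adjusted p of 0.429 by limma. Without DOX/IgG1 replicate 1, Lamc3 also passed the test for doxorubicin, with a log2 fold change of 1.96 and an adjusted p of 0.0174 by limma, and over 19 alternatives the adjusted p ranged from 0.0174 to 0.507. Lamc3 is a low gene, and a pseudocount of 1 understates its fold changes.

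**Figure D5:**
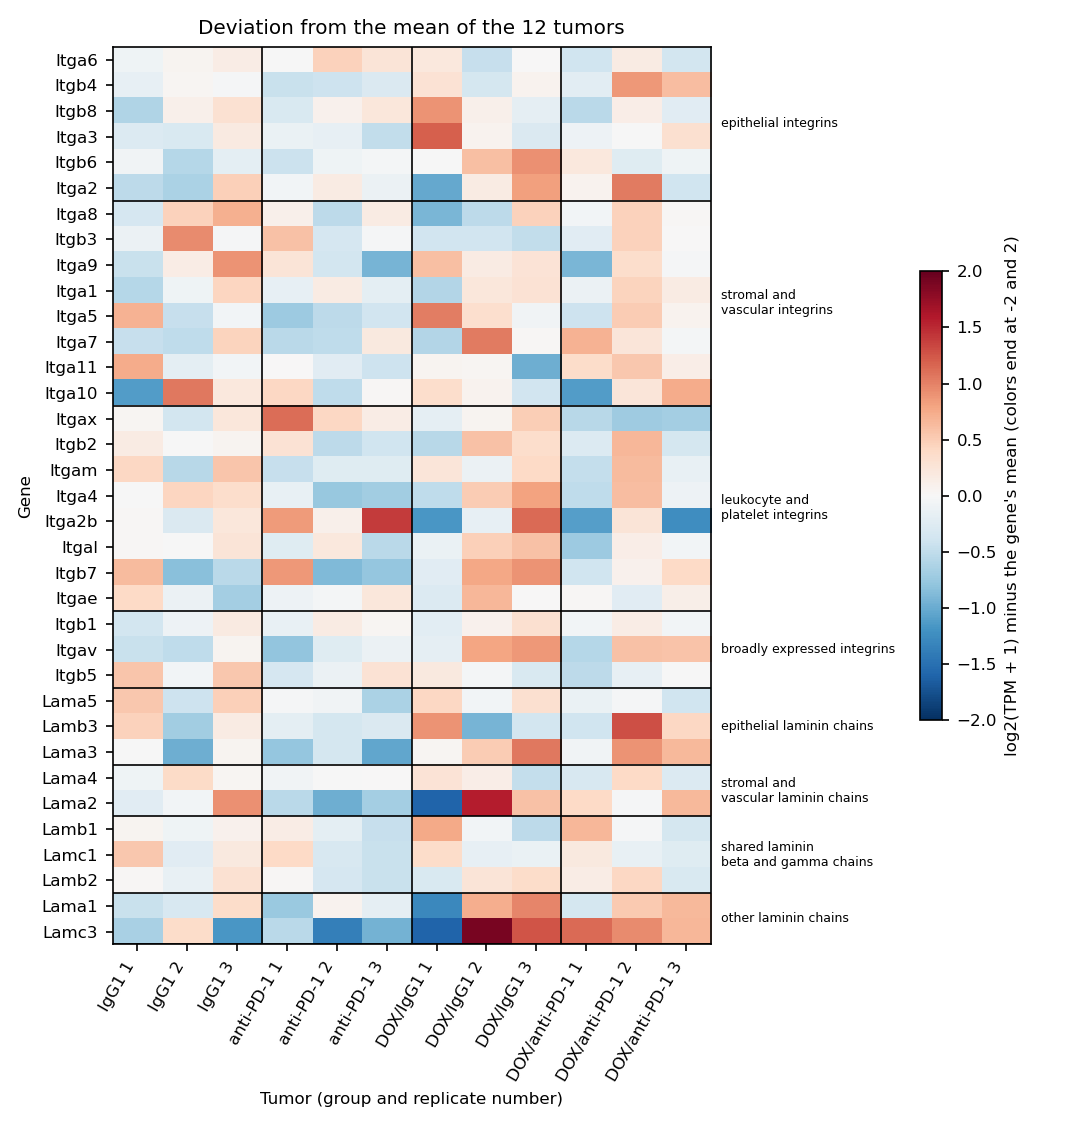
Deviation of log2(TPM + 1) from each gene's mean over the 12 tumors for 35 of the 36 tested genes, in rows by class, with tumors in columns by group and replicate. DOX/IgG1 replicate 1 differs from the other tumors of its group, with low Lama2 and Lamc3 and high Itga3 and Itgb8.

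Genes that act with integrins and laminins were followed in 4 lists. Of 13 other integrin ligands, 11 were tested for doxorubicin and 1 was called: Npnt, which encodes nephronectin, the ligand of alpha8beta1. Npnt was at 102, 185 and 129 TPM in the IgG1 tumors, 142, 218 and 193 in the anti-PD-1 tumors, 12.9, 41.2 and 36.7 in the DOX/IgG1 tumors and 70.3, 122 and 42.1 in the DOX/anti-PD-1 tumors. All 3 DOX/IgG1 tumors were below all 6 tumors without DOX, and 2 of 3 DOX/anti-PD-1 tumors were below them too. Its log2 fold change for doxorubicin was -1.81 (SE 0.31) with an adjusted p of 0.0906 by limma. The call was lost under 13 of 19 alternatives, among them a pseudocount of 0.1 (adjusted p 0.127) and leaving out IgG1 replicate 2 (adjusted p 0.251), and the adjusted p ranged from 0.0163 to 0.329 while the log2 fold change stayed between -1.998 and -1.552. Spp1, which encodes osteopontin and was the most abundant ligand by mean, was at 1222, 525 and 628 TPM in the IgG1 tumors, 757, 1096 and 774 in the anti-PD-1 tumors, 1590.1, 463 and 303 in the DOX/IgG1 tumors and 404, 697 and 706 in the DOX/anti-PD-1 tumors, with an adjusted p of 0.681 for doxorubicin.

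Of the other 3 of these lists, 0 genes passed the test by limma in any comparison. For doxorubicin, with values as deposited, 7 of 9 basement membrane partners and other laminin receptors were positive, 5 of 5 hemidesmosome partners and 21 of 24 integrin adaptors and signaling genes, beside 9332 of all 14735 genes tested. At an unadjusted p below 0.05 by limma the first list held 3 higher genes and 1 lower gene, the second 1 higher gene and the third 3 higher genes. Of all genes tested, 11.9% had such a p for doxorubicin, and the third list's 3 of 24 is near this share. For DOX/anti-PD-1 against anti-PD-1, with 8.63% of all genes, the first list held 3 higher and 3 lower genes of 9. The second held 1 higher gene of 5 there and the third 6 higher genes of 24. For DOX/IgG1 against IgG1, with 7.73% of all genes, the 3 lists held 0, 0 and 1 such gene. The most abundant gene of each by mean was Cd151, a tetraspanin partner of alpha3 and alpha6 integrins, at a mean of 140.0 TPM, Dst, a plakin of hemidesmosomes, at 209 TPM, and Rap1b, a small GTPase that activates integrins, at 169 TPM.

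Of the 14 lists of cell type markers, only the salivary gland list held a gene that passed the test: Bpifa2 and Smr3a for DOX/IgG1 against IgG1, each with an adjusted p of 0.0334 by limma, and Bpifa2 for the average of doxorubicin (adjusted p 0.0446), the average of anti-PD-1 and the interaction (adjusted p 0.0909 each, both lost under 15 of 19 alternatives). Bpifa2 lost its call for DOX/IgG1 against IgG1 under 7 of 14 alternatives, with adjusted p values from 0.00169 to 0.317, and Smr3a under 8 of 14, from 0.0173 to 0.317. For doxorubicin averaged over both antibodies Bpifa2 lost it under 5 of 19, from 0.00332 to 0.323. The 5 pericyte markers summed to 138, 131 and 152 TPM in the IgG1 tumors, 133, 121 and 153 in the anti-PD-1 tumors, 264, 188 and 169 in the DOX/IgG1 tumors and 137, 199.5 and 154 in the DOX/anti-PD-1 tumors, with Mcam the most abundant, and the 5 endothelial markers to 101, 106 and 123 TPM in the IgG1 tumors, 83.6, 83.1 and 87.1 in the anti-PD-1 tumors, 108, 118 and 67.8 in the DOX/IgG1 tumors and 91, 132 and 51.8 in the DOX/anti-PD-1 tumors, with Pecam1 the most abundant by mean. Both DOX/IgG1 replicate 3 and DOX/anti-PD-1 replicate 3 were low for the endothelial sum. Not every marker was low in them: Kdr was at 25.5 TPM in DOX/IgG1 replicate 3, above its mean of 17.6 TPM over all tumors.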

How the data were processed

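Total RNA of 12 tumors was made into stranded libraries and sequenced; the authors trimmed reads with skewer, used STAR for alignment to mm10 and RSEM for gene levels (versions not given in the sources used here). The deposited values are log2(TPM + 1) with decimal commas, 1 file per tumor. They were converted to TPM and rounded, and their range was checked. Depth is unknown, since TPM keeps no depth.

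Groups were compared with limma 3.58.1 in R 4.3.3 on log2(TPM + 1) with a mean-variance trend, two-sided, keeping genes at 1 TPM or more in at least 3 tumors, with Benjamini-Hochberg adjustment over all genes tested. Python 3.11.15 with pandas 2.3.3, numpy 2.4.6 and matplotlib 3.10.9 was used for the other steps. Pairwise fits used 6 tumors and the others 12. Fits were tested on simulated data. Exact permutation tests were two-sided. A fold change is on the log2(TPM + 1) scale and understates that of low genes. Coordinates are from GENCODE on GRCm38, promoters from RefSeq.

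Values in every tumor were given for the 2 most abundant members of each class and for members with an unadjusted p below 0.05 in any comparison, 20 genes in all. Members and lists were chosen with earlier results of these data known. Alternatives changed the pseudocount, filter, scaling, trend, replicate block, fold limit, tumors left out and tumors fitted, and 1 more, leaving out tumors rich in muscle markers, was added after seeing the data. Trac and Muc19 were not found among the listed genes. Values of 1 laminin chain are not reported here.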

Additional observations from a re-analysis of the deposited data

Results flagged for a closer look

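The effect of doxorubicin on Itgax is given here because its difference between the antibodies had an unadjusted p below 0.05, a limit set after results were seen. The log2 fold change of DOX/anti-PD-1 against anti-PD-1 minus that of DOX/IgG1 against IgG1 was -1.36 (SE 0.43, 95% interval -2.30 to -0.43). The adjusted p over all genes tested was 0.993 by limma, so the difference failed the correction. Every DOX/anti-PD-1 tumor was below every other tumor for Itgax, and over 19 alternatives the value ranged from -1.57 to -1.09. The column headings of these 3 tumors differ from those of the other 9 in a way that was not explained, and this cannot be told apart from the group. Single tumors were not tested for outlying values.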

How the results depend on the processing

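The count of members called was 0 in all 7 comparisons, and it was 0 as well under every alternative except 1: without DOX/IgG1 replicate 1, 2 members, Lama3 and Lamc3, were called for doxorubicin averaged over both antibodies, so that leaving out 1 tumor gave between 0 and 2 members there. In that fit 301 of all genes tested were called (2.04%), against 13 genes with all tumors and 0 to 20 without any other single tumor. Fewer tumors were fitted in that case. With adjusted p below 0.1 and no limit on the fold change, 0 members were called in each comparison. The 17 log2 fold changes with an unadjusted p below 0.05, of 9 members, kept their sign under the alternatives run for them. Under the median-of-ratios scaling, 8 of 36 members changed sign for DOX/IgG1 against IgG1, 5 for doxorubicin averaged over both antibodies, 3 for DOX/anti-PD-1 against anti-PD-1 and 0 to 2 in the other 4 comparisons. The titles number the tumors 1 to 3 in each group, but the labels do not say that a number marks a shared mouse, litter or day. Deviations from the group means correlated between -0.10 and 0.13 over the 18 pairs of tumors with the same number, with 4 above 0.1, and 8 of 12 tumors correlated best with a tumor of their own number, each having 3 such tumors among the 9 of other groups, as a hint from the data only. The 36 pairs with different numbers had -0.19 to 0.11, with 3 above 0.1. As not every pair with the same number was above 0.1, the numbers were not taken as pairs. This rule cannot show that the tumors were unpaired, because deviations from means of 3 tumors are noisy. With the replicate block, 0 members were called in each of the 7 comparisons, and 5 members had an unadjusted p below 0.05 for doxorubicin, as without the block. Leaving out the 3 tumors rich in muscle markers, chosen after seeing the data, gave 0 members called in each comparison. Counts of members with an unadjusted p below 0.05 stayed within 1.5 times in 72 cases, were higher in 16 and lower in 18. Counts of all genes called stayed within 1.5 times in 48 cases, were higher in 23 and lower in 42. Depth is unknown, so how far counting error limits the low genes was not tested.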
